A study of Mus musculus with 6 samples.

Results

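Genes of glycolysis and of the cellular response to low oxygen were followed in tumour organoids of the mouse, grown from pancreatic ductal adenocarcinoma (PDAC). The 36 genes were chosen by name: 2 transporters, 13 glycolytic enzymes, 2 regulators of glycolysis, 16 targets of the hypoxia-inducible factor (HIF) outside glycolysis, and 3 genes of HIF itself and its control. All 36 had values, among 14254 genes in the table. The samples were organoids of the line KPF_5.3G, kept in medium with Noggin, R-spondin-1, gastrin, EGF and FGF-10, 3 with a control short hairpin RNA (shCtrl, genotype WT in the labels) and 3 with 1 lentiviral hairpin against Jag1 (shJag1_3, genotype Jag1 knockdown). Jag1 encodes a ligand of the Notch receptors, and the study asked about its role in tumour-initiating cells with much CD9. A single hairpin and a single line limit the groups as a model, and the labels do not give the oxygen in the culture. The series calls the replicates biological without saying whether they were separate cultures. If they were not, p-values measure only the spread between these samples, which may be technical.

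Glycolysis splits glucose into pyruvate in the cytosol, and lactate dehydrogenase turns pyruvate into lactate, which leaves the cell through monocarboxylate transporters. HIF is a transcription factor made of an alpha subunit (Hif1a or Epas1) and a beta subunit. With enough oxygen, prolyl hydroxylases of the Egln family mark the alpha subunit, and the Vhl protein then directs its degradation, so that HIF activity is set mainly through the amount of alpha protein. When oxygen is low, HIF binds short DNA sequences with the core ACGTG or GCGTG and raises many genes, among them glycolytic enzymes. PDAC is known for a poor oxygen supply and for high use of glucose.

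The windows before the start sites show how often such letters stand near these genes. RefSeq promoter sequences (GRCm38.p6) were matched by symbol for 32 of the 36 genes, and the 250 bases before each start site were searched for ACGTG and GCGTG on both strands, with overlapping matches counted as 1. At least 1 window held ACGTG in 19 of these 32 genes (59.4%), against 25.0% of the tested genes with a promoter and 18.5% of all genes in the promoter table. For either motif these shares were 90.6%, 61.5% and 41.5%. All 13 HIF targets outside glycolysis with a window held at least 1 of the motifs, as did 11 of the 13 enzymes. A match is a description of letters and does not show binding. The following windows are shown because they come from 5 genes that passed the test described below, in different roles, and from 2 that did not (Hk2 and P4ha1). Each window shown holds ACGTG. Of other genes that passed, Tpi1 held neither motif, and Eno1, Gapdh, Pfkp and Adm held only GCGTG. A second window of Ldha, not shown, held 1 GCGTG. Capitals mark both motifs, on either strand, and each sequence runs 5′ to 3′ along its gene. The windows are chr7:46845554-46845803 (plus strand) for Ldha, chrX:106186850-106187099 (plus) for Pgk1 and chr11:120948817-120949066 (plus) for Slc16a3. Those of Bnip3 and Ankrd37 are chr7:138909507-138909756 (minus) and chr8:45999851-46000100 (minus). Hk2 has chr6:82774455-82774704 (minus) and P4ha1 has chr10:59323046-59323295 (plus).
Ldha: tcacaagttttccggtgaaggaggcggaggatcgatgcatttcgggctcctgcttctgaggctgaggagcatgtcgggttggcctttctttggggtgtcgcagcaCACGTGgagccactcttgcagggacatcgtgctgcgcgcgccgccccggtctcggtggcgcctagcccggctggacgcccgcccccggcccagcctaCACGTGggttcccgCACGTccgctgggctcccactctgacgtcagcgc
Pgk1: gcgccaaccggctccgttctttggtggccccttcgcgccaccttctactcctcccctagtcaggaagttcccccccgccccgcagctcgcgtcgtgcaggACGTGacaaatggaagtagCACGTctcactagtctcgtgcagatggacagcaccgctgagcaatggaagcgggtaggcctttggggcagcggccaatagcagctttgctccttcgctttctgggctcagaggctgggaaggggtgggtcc
Slc16a3: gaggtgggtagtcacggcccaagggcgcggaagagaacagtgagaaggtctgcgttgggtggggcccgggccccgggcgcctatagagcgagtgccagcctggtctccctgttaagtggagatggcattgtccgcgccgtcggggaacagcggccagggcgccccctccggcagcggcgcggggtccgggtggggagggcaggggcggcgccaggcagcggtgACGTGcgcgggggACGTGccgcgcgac
Bnip3: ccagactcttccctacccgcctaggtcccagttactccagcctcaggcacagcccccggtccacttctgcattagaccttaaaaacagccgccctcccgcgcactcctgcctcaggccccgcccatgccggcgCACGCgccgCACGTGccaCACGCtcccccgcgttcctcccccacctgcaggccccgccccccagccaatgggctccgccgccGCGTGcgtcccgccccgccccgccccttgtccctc
Ankrd37: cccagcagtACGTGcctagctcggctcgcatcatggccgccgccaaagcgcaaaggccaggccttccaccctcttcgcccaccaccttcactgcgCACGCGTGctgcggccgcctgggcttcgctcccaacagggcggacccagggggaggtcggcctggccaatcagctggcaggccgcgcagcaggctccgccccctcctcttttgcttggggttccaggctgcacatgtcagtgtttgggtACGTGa
Hk2: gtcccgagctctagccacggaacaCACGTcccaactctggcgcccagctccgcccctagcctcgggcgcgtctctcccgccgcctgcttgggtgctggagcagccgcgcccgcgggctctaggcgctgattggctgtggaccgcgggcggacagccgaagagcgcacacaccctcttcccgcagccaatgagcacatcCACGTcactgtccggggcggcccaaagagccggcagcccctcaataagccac
P4ha1: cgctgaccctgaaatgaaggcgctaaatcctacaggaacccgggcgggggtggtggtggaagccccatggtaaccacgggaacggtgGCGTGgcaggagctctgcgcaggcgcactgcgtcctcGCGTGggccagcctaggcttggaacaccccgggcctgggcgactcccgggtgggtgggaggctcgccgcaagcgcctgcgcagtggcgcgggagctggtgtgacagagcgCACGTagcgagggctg

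With both motifs counted, the Hk2 and P4ha1 windows hold 2 and 3 matches. Those of Pgk1 and Slc16a3 hold 2, those of Ldha and Ankrd37 hold 3, and that of Bnip3 holds 4. The matches of Hk2, Pgk1, Slc16a3 and Ldha are all ACGTG. P4ha1 has 1 ACGTG and 2 GCGTG, Ankrd37 has 2 and 1, and Bnip3 has 1 and 3. No test of motifs against calls was made. Among enzymes, ACGTG stood in a window of 4 of the 8 genes that passed and of 2 of the 5 that did not. Among HIF targets outside glycolysis, ACGTG stood in a window of 5 of the 6 genes with a window that passed and of 4 of the 7 that did not.

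Libraries held 22268997 to 35172593 reads. Both replicate 1 libraries stood apart from the other 4 along the first principal component of all tested genes, which held 55.8% of the variance. Values below are read counts divided by 1 factor per library (normalised counts). Jag1 had 412, 983 and 847 in the controls, by replicate number, and 226, 321 and 557 in the knockdowns. All pairs had less in the knockdown, but the groups overlapped, and it passed DESeq2 only with a term for the replicate number (log2 change -1.02, SE 0.27, adjusted p = 0.0063, against 0.691 in limma). Ductal keratins Krt8 and Krt19 stood at 25865 or more in every library, and the 8 ductal epithelial markers summed to 173577 to 239226 in controls and 229062 to 594989 in knockdowns. Markers of other cell types were low: 2 of 10 fibroblast markers had values, with summed levels of 36 to 45 in controls and 29 to 45 in knockdowns. Of 12 acinar, 8 endothelial and 10 immune markers 1 each was tested, with levels from 6 to 62 for the acinar and endothelial ones. The immune marker was Cd68, a lysosomal protein of macrophages that other cells also make, at 98.6 to 136 in controls and at 117, 988 and 400 in knockdowns 1, 2 and 3. Its part in the results was not tested. In bulk samples, fewer cells of a type and less RNA per cell cannot be told apart.

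By name, 26 of the 36 genes were higher in the knockdown of all 3 pairs, against 22.3% of all 13997 genes tested, and 3 were lower in all 3, against 19.7%. The reads of the 36 genes together made up 1.46%, 1.79% and 1.53% of gene reads in the controls, by replicate number, against 1.96%, 3.24% and 2.16% in the knockdowns. Every knockdown library thus lay above every control library, with knockdown 2 the highest. The median limma log2 change of the 36 was 0.52, beside 0.00 over all genes tested. In the main test, limma on log2 counts, 0 of the 36 passed at an adjusted p of 0.05, as did 0 of all genes, and 5 of the 36 had an unadjusted p below 0.05, as did 1021 of the 13997. EdgeR also called 0, with 7 of the 36 and 1021 of all genes at an unadjusted p below 0.05. DESeq2 without the replicate term called 1, Adm, and 0.722% of all genes as higher and 0.522% as lower. With a replicate term (the blocked fits), limma and edgeR called 0 of the 36, where each called 0.0143% of all genes as higher, with 25 and 24 at an unadjusted p below 0.05, beside 2725 and 2605 of all genes. The blocked DESeq2 fit called 18 higher and 1 lower, against 4.54% and 2.60% of all genes tested.

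Below, "passed" means an adjusted p under 0.05 in the blocked DESeq2 fit, a fit used after limma had called no gene. Log2 changes are limma's, knockdown minus control, with their standard errors (SE), unless DESeq2 is named, and adjusted p-values cover all genes tested. In this fit 17 higher and 1 lower were called on replicates 2 and 3 only, where 9.24% and 6.32% of all genes were. With replicate 1 in place of either, fewer were called. On replicates 1 and 3 only, 4 were called higher and 0 lower, against 0.464% and 0.250% of all genes. On replicates 1 and 2 only, 7 and 0 were, against 0.636% and 0.279%. The share of all genes called also fell with replicate 1, so these counts do not show which replicates the calls came from.

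**Figure D1:**
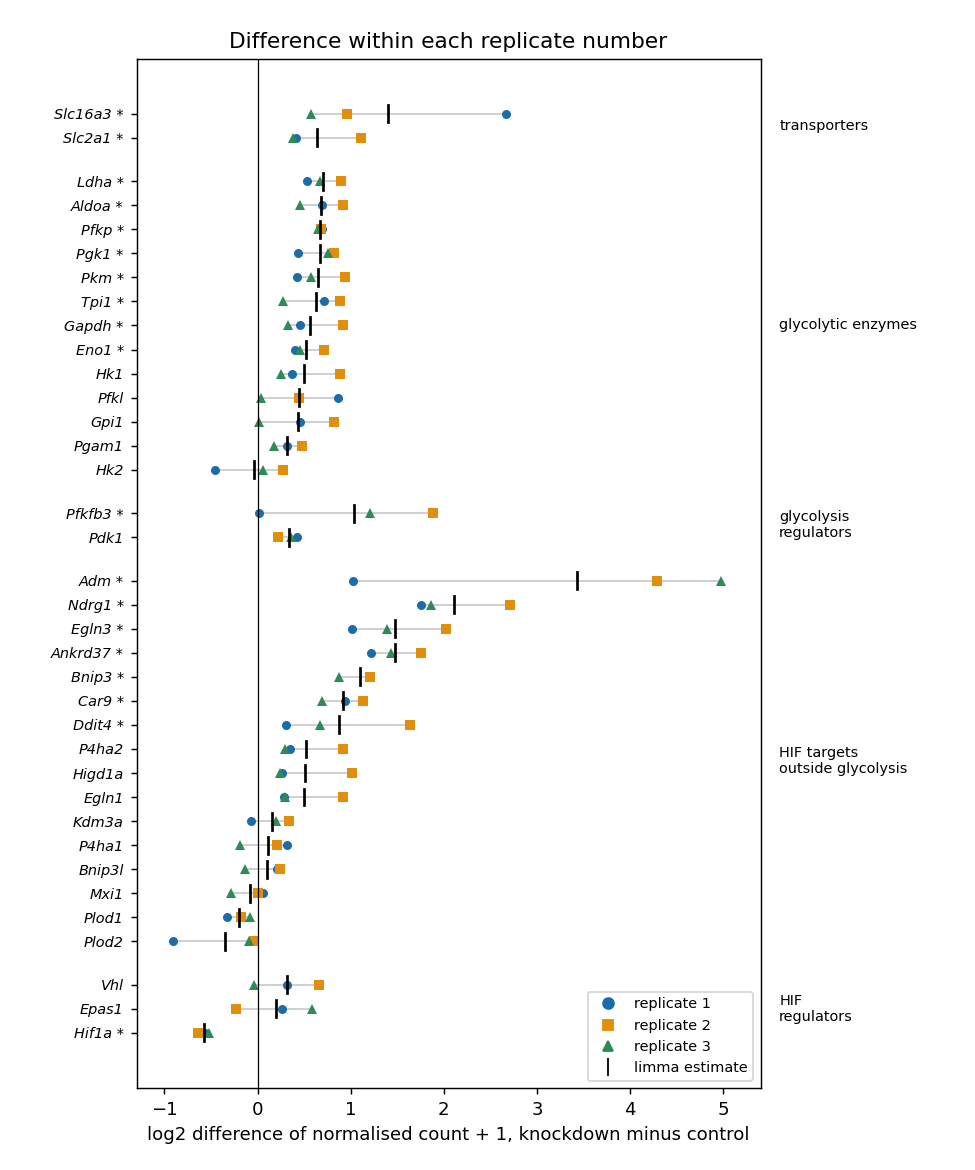
Log2 difference between knockdown and control (horizontal axis) within replicate 1 (blue circles), 2 (orange squares) and 3 (green triangles) for each of the 36 genes, grouped by role. Vertical ticks are limma estimates and asterisks mark genes that passed DESeq2 with the replicate term. Enzymes lie close together, between -0.04 and 0.70 on the estimate, and HIF targets outside glycolysis spread from -0.35 to 3.43.

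Both transporters passed. The glucose transporter Slc2a1 (GLUT1; chr4:119108711-119137983, plus strand) had 4587, 9765 and 9553 normalised counts in controls 1, 2 and 3, against 6121, 21076 and 12399 in the knockdowns of those numbers. Its mean went from 7969 ± 2930.3 to 13199 ± 7509.5 (SD, n = 3 each), or 0.63 on the log2 scale (SE 0.50, adjusted p = 0.0446 in blocked DESeq2 and 0.835 in limma). The groups overlapped, since knockdown 1 lay below controls 2 and 3. Slc16a3 (MCT4, which exports lactate; chr11:120948480-120960868, plus strand) had 259, 8951 and 4154 in controls and 1656, 17479 and 6197 in knockdowns. Replicate 1 was far below the others in both groups, and the knockdown stood 6.39, 1.95 and 1.49 times above its control in pairs 1, 2 and 3. The log2 change was 1.40 (SE 1.41, adjusted p = 0.0049 in blocked DESeq2). Without control 1 the limma change was -0.11, so that its sign in the unpaired comparison rests on that library. It was 2.44 without control 2, 2.29 without knockdown 1 and 0.59 without knockdown 2, where that of Slc2a1 was 0.21.

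Glycolytic enzymes were higher in the knockdown almost throughout. Of the 13, 12 were higher in all 3 pairs, and 8 passed as higher and 0 as lower, against 4.54% and 2.60% of all genes. The median log2 change was 0.57, with 0.45, 0.83 and 0.33 in pairs 1, 2 and 3. In 6 enzymes (Hk1, Gapdh, Pgam1, Eno1, Pkm and Ldha) every knockdown library lay above every control library, against 6.29% of all genes. In 0 of the 36 genes did every knockdown lie below every control, against 5.44%. Knockdown 2 was the highest library for all 13. It also had the largest share of spike-in reads, 1.04% against 0.46% to 0.74% in the other 5, which was not tested as a factor. Without knockdown 2 the median was 0.35, the 8 enzymes that passed were at 0.35 to 0.56, and 12 of 13 were still above 0. Scaled by spike-in reads, the median was 0.39, beside -0.18 for all genes. On replicates 1 and 3 only, and on 1 and 2 only, blocked DESeq2 called 0 enzymes, against 0.464% and 0.636% of all genes as higher. On 2 and 3 only it called 7, against 9.24%. The enzymes above 0 in these fits were 12, 12 and 13 of the 13.

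Ldha, Pkm and Eno1, at the end of the pathway, passed as higher with groups that did not overlap. Lactate dehydrogenase A (Ldha; chr7:46841475-46855627, plus strand) had 41348, 45400.1 and 41236 normalised counts in controls 1, 2 and 3, against 59921, 84420.4 and 65735 in the knockdowns. The controls lay close together and every knockdown stood above them. The mean went from 42661 ± 2373 to 70026 ± 12801, which is 0.70 on the log2 scale (SE 0.21, adjusted p = 0.0016 in blocked DESeq2, 0.611 in limma). Pyruvate kinase (Pkm; chr9:59656368-59679375, plus strand), which makes pyruvate, had 88539, 94468 and 80429.7 in controls and 118892, 180486 and 119576 in knockdowns. Its groups did not overlap, and its log2 change was 0.64 (SE 0.26, adjusted p = 0.0104 in blocked DESeq2). Counts per gene do not tell the M1 and M2 forms of the enzyme apart. Exons of Pkm overlap those of Gm49759 on the same strand, at a mean of 1819 normalised counts against 113732. Enolase 1 (Eno1; chr4:150236721-150248879, plus strand) had 41339, 44879 and 41628 in controls and 54447, 73749.7 and 56931 in knockdowns, which is 0.52 on the log2 scale (SE 0.21, adjusted p = 0.0285 in blocked DESeq2).

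Gapdh, which oxidises glyceraldehyde phosphate and often serves as a loading control, itself passed as higher. Its counts (chr6:125161715-125166467, minus strand) were 61092, 67312 and 62868 in controls and 83555, 127267 and 78860.3 in knockdowns. The groups did not overlap, and the log2 change was 0.57 (SE 0.26, adjusted p = 0.0448 in blocked DESeq2, 0.699 in limma and 0.248 in blocked limma). Phosphoglycerate kinase 1 (Pgk1; chrX:106187100-106203699, plus strand), which makes ATP in the next step, had 16628, 31832 and 22683 in controls and 22391, 56418 and 38280.2 in knockdowns. Knockdown 1 lay below controls 2 and 3, and the change was 0.67 (SE 0.39, adjusted p = 0.0044 in blocked DESeq2). Reads of Gapdh, Ldha, Pgam1, Tpi1, Eno1, Aldoa and Pkm can match processed pseudogenes, and how the authors' counting treated such reads is not given in the sources used here.

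In the upper part of the pathway, Pfkp, Aldoa and Tpi1 passed as higher. Platelet-type phosphofructokinase (Pfkp; chr13:6579768-6648777, minus strand) had 3350.4, 9003 and 6937 in controls and 5405, 14382 and 10914 in knockdowns. The ratio of knockdown to control was nearly the same in each pair, at 1.61, 1.60 and 1.57, and the change was 0.67 (SE 0.48, adjusted p = 8.87e-04 in blocked DESeq2). Its exons overlap those of Pitrm1 on the other strand, at a mean of 2974 normalised counts against 8332, and the kit does not mark strand. Exons of Tpi1 overlap Spsb2 in the same way, at 408 against 26708. Aldolase A (Aldoa; chr7:126795234-126800751, minus strand), which splits the six-carbon sugar, had 25670.1, 48873 and 36696 in controls and 41364, 92033 and 50275 in knockdowns, a change of 0.69 (SE 0.38, adjusted p = 0.0041 in blocked DESeq2). Triosephosphate isomerase (Tpi1) went from 17877, 24321 and 19837 to 29256, 45034 and 23923, a change of 0.62 (SE 0.28, adjusted p = 0.024 in blocked DESeq2). In both, the libraries of the groups interleaved, and knockdown 2 was highest.

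5 enzymes did not pass: Hk1 at 0.50 (SE 0.22), Pfkl at 0.45 (SE 0.35), Gpi1 at 0.43 (SE 0.28), Pgam1 at 0.32 (SE 0.18) and Hk2 at -0.04 (SE 0.18), with adjusted p from 0.108 to 0.956 in blocked DESeq2. Hk1 and Hk2 are the hexokinases that trap glucose in the cell. Hk1 (chr10:62268855-62379908, minus strand) had 6278, 7164 and 7152 in controls and 8141, 13257 and 8490.0 in knockdowns, with no overlap. Hk2 (chr6:82725025-82774454, minus strand), the form best known as a HIF target, had 5650.3, 4749 and 4632 in controls and 4121, 5721 and 4813 in knockdowns. It was lower in the knockdown of pair 1 and higher in pairs 2 and 3, and its groups overlapped fully. Per kilobase of exon, Pkm and Gapdh had the highest levels among the enzymes, 17559 and 15426 in controls and 27925 and 23363 in knockdowns. Hk1 and Hk2 were at 805 and 839 per kilobase in controls, and Pfkp was lowest at 479.8.

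**Figure D2:**
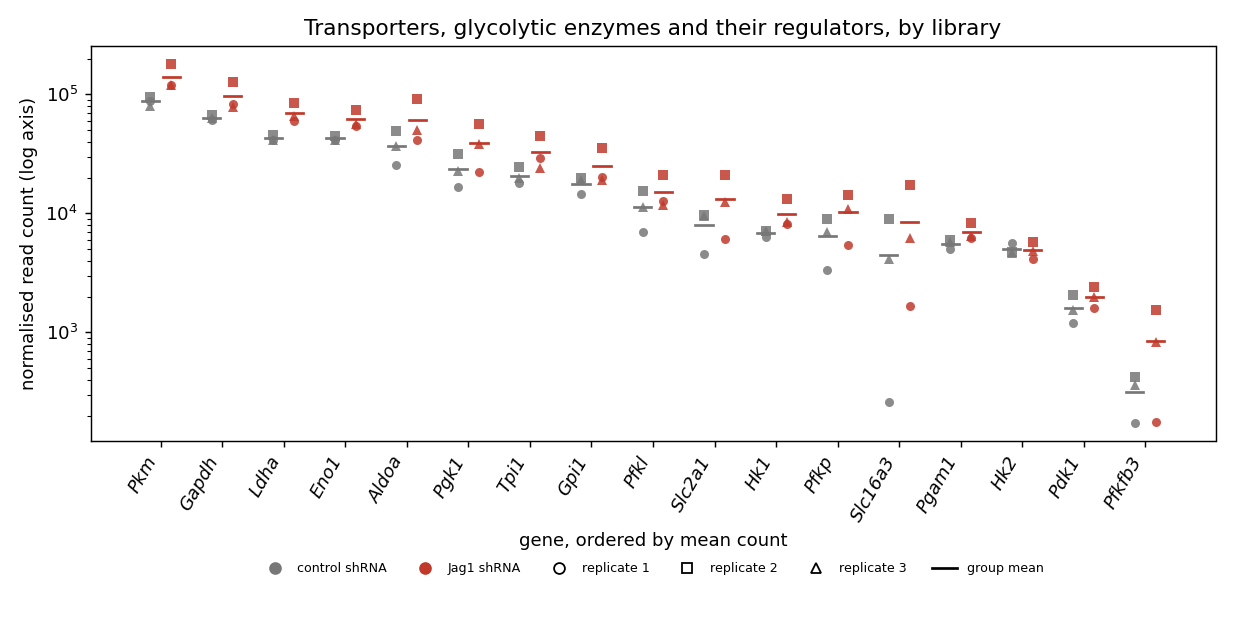
Normalised read count (log axis) of the transporters, enzymes and glycolysis regulators in the 3 control (grey) and 3 knockdown libraries (red); marker shapes give the replicate number and bars the group means. Replicate 2 of the knockdown (red squares) is the highest library for every gene shown, and replicate 1 of the control is far below the rest for Slc16a3, at 259.

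Of the regulators, Pfkfb3 passed and Pdk1 did not. Pfkfb3 (chr2:11471433-11554077, minus strand) makes fructose 2,6-bisphosphate, the activator of phosphofructokinase. It had 175, 420.3 and 359 in controls and 176, 1549 and 829 in knockdowns. Replicate 1 showed no difference (ratio 1.01), and replicates 2 and 3 differed 3.69-fold and 2.31-fold. The change was 1.03 (SE 0.79, adjusted p = 0.0463 in blocked DESeq2), and on replicates 2 and 3 only it passed limma (1.54, adjusted p = 0.0393). Without knockdown 1 the limma change was 1.93, and without knockdown 2 it was 0.36. Pdk1, a kinase that shuts off pyruvate dehydrogenase, had 1205, 2056 and 1547 in controls and 1619, 2386 and 1986 in knockdowns. It was higher in each pair, with overlapping groups and a change of 0.33 (SE 0.25, adjusted p = 0.279 in blocked DESeq2).

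HIF targets outside glycolysis held genes with large differences beside genes with values near 0. Of the 16, 7 passed as higher and 0 as lower, against 4.54% and 2.60% of all genes, and 10 were higher and 2 lower in all 3 pairs. The median log2 change was 0.51, with 0.31, 0.97 and 0.30 in pairs 1, 2 and 3. Knockdown 2 was the highest library for 14 of the 16. Without it the median was 0.23, and 10 of 16 were above 0, as against 13 with all libraries. Only Egln1 had groups that did not overlap, against 6.29% of all genes. Proliferation genes moved with these groups in pairs 2 and 3, with medians of -0.01, 1.35 and 1.04 in pairs 1, 2 and 3, and their summed level was highest in both replicate 1 libraries (63625 and 63494, against 20649 to 46070 in the other 4). Of the 12 proliferation genes 5 passed as higher, and of the 8 ductal epithelial markers 4 did, against 4.54% of all genes. The median log2 change was 0.81 in each of these lists. The part of either in the results was not tested.

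The largest change was in Adm, which encodes adrenomedullin, a secreted peptide that widens blood vessels. Adm (chr7:110627661-110629820, plus strand) had 35.6, 108 and 29.9 normalised counts in controls 1, 2 and 3, against 73.7, 2125 and 970.4 in the knockdowns. Knockdown 1 lay between the controls, and knockdowns 2 and 3 were above all of them, at 19.7 and 32.5 times their own control. The change was 3.43 (SE 1.22, adjusted p = 0.0104 in blocked DESeq2, 0.643 in limma). Adm was the 1 gene of the 36 that passed DESeq2 without the replicate term (4.19, adjusted p = 0.0031). Its limma change was 4.85 without knockdown 1 and 2.44 without knockdown 2.

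Ndrg1, a stress-responsive gene linked to differentiation, was higher in every pair. It had (chr15:66929318-66969640, minus strand) 597, 3328 and 2444 in controls and 2010.2, 21813 and 8902 in knockdowns, which is 3.37, 6.55 and 3.64 times the control. Knockdown 1 fell among the controls, and each replicate 1 library was the lowest of its group. The change was 2.11 (SE 0.97, adjusted p = 5.16e-15 in blocked DESeq2, 0.134 in blocked limma). Egln3, a prolyl hydroxylase that HIF itself raises, had (chr12:54178981-54203860, minus strand) 1973, 4878 and 3143 in controls and 3982, 19857 and 8219 in knockdowns. Its change was 1.47 (SE 0.60, adjusted p = 2.39e-07 in blocked DESeq2). The limma change of Ndrg1 was 1.36 without control 1, 3.04 without knockdown 1 and 1.32 without knockdown 2, and that of Egln3 was 0.88 without knockdown 2. Both genes, with Slc16a3 and Adm, passed in the blocked DESeq2 fit under each choice of 2 replicate numbers.

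Ankrd37, Bnip3 and Car9 passed, with a wide spread of levels in both groups. Ankrd37, an ankyrin-repeat protein, had (chr8:45996902-46005707, minus strand) 44.7, 558 and 214 in controls and 105, 1892 and 581 in knockdowns, a change of 1.47 (SE 1.24, adjusted p = 1.51e-07 in blocked DESeq2). Its exons overlap those of Ufsp2 on the other strand, at a mean of 1271 normalised counts, and the library kit does not mark strand. Bnip3, which marks mitochondria for removal, had (chr7:138890836-138909519, minus strand) 438, 2057 and 1451 in controls and 1012, 4758 and 2654 in knockdowns. The knockdown was 2.31, 2.31 and 1.83 times its control, and the change was 1.10 (SE 0.73, adjusted p = 9.69e-07 in blocked DESeq2). The surface carbonic anhydrase Car9 (chr4:43506966-43513729, plus strand) had 688, 4399.8 and 2217 in controls and 1319.9, 9646 and 3574 in knockdowns, a change of 0.92 (SE 0.88, adjusted p = 6.63e-05 in blocked DESeq2). In all 3 genes, the control of replicate 2 exceeded the knockdown of replicate 1, so the groups overlapped. The limma change of Bnip3 was 0.44 without control 1, 0.58 without knockdown 2 and 1.70 without knockdown 1. For Car9 it was 0.19, 0.20 and 1.64, and 1.53 without control 2. For Ankrd37 it was 0.50, 0.49 and 2.57, and 2.30 without control 2. On replicates 1 and 3 only, none of the 3 passed (adjusted p from 0.085 to 0.309 in blocked DESeq2).

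Ddit4, an inhibitor of the growth kinase mTORC1, also passed. It had (chr10:59949669-59951834, minus strand) 3773, 5797 and 5014 in controls and 4669, 18074 and 7981 in knockdowns. Knockdown 2 stood out, and the change without it was 0.35. With all libraries it was 0.87 (SE 0.48, adjusted p = 0.027 in blocked DESeq2). On replicates 1 and 3 only, and on 1 and 2 only, its adjusted p in that fit was 1.00 and 0.217.

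The other 9 targets did not pass, with adjusted p from 0.139 to 0.89 in blocked DESeq2. 3 of them lay near the enzymes: the hydroxylase Egln1 at 0.50 (SE 0.24), the mitochondrial protein Higd1a at 0.51 (SE 0.30) and the collagen prolyl hydroxylase subunit P4ha2 at 0.52 (SE 0.39), each higher in all 3 pairs. Egln1 (chr8:124908587-124949324, minus strand) had 2109, 2359 and 2196 in controls and 2572, 4444 and 2699.6 in knockdowns. The remaining 6 were between -0.35 and 0.15: the lysyl hydroxylases Plod1 (-0.20) and Plod2 (-0.35), P4ha1 (0.11), the histone demethylase Kdm3a (0.15), the Myc antagonist Mxi1 (-0.08) and Bnip3l (0.11). Plod1 and Plod2 were lower in all 3 pairs. Related genes thus differed in their values. Bnip3l, a paralogue of Bnip3 with a like role, had 3558, 7841 and 8118 in controls and 4119, 9276 and 7392 in knockdowns. P4ha1 had 1959, 6147 and 4655 in controls and 2442, 7083 and 4077 in knockdowns, and the difference between related genes was not tested.

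**Figure D3:**
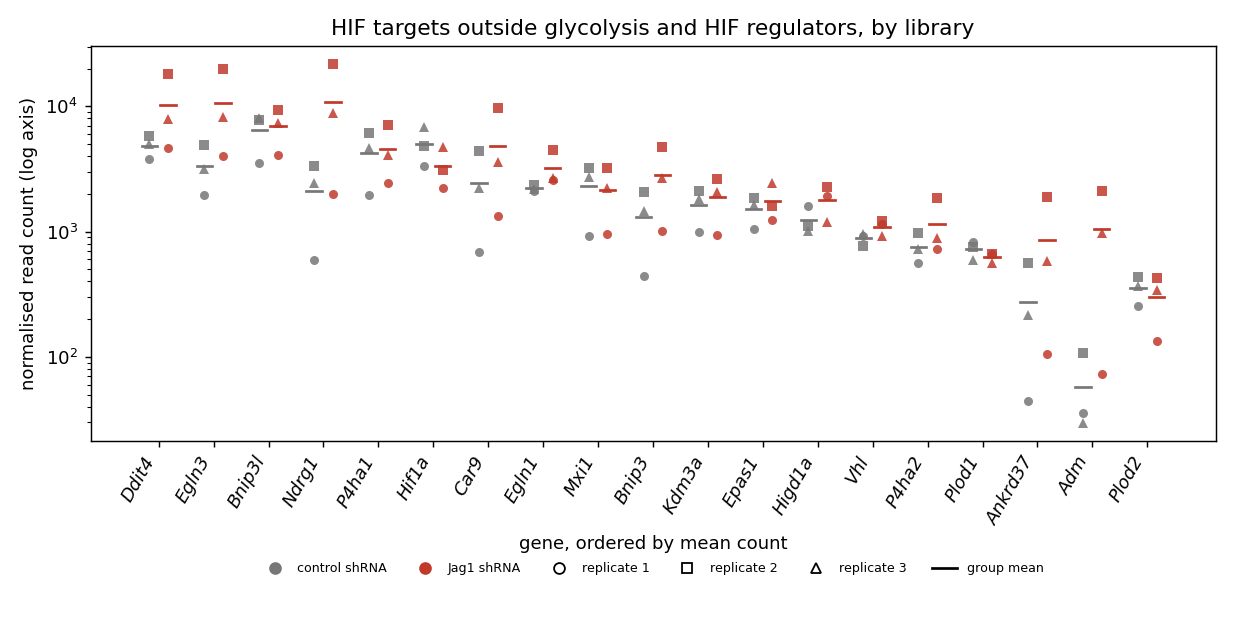
Normalised read count (log axis) of the HIF targets outside glycolysis and of the HIF regulators in the 3 control (grey) and 3 knockdown libraries (red); marker shapes give the replicate number and bars the group means. Adm in knockdowns 2 and 3 stands at 2125 and 970.4 against 29.9 to 108 in the controls, and replicate 1 (circles) is low for most targets in both groups.

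The transcript of HIF's own alpha subunit went the other way. Hif1a (chr12:73901375-73947530, plus strand) had 3331, 4782 and 6782 in controls and 2247, 3078 and 4728 in knockdowns. The groups overlapped, but the knockdown was 0.675, 0.644 and 0.697 times its control in pairs 1, 2 and 3. The change was -0.57 (SE 0.35, adjusted p = 0.0089 in blocked DESeq2, 0.147 in blocked limma). It was the 1 gene of the 36 to pass as lower. On replicates 2 and 3 only it passed that DESeq2 fit (adjusted p = 0.0319), and on the other 2 choices of replicates it did not (0.465 and 0.897). Exons of Hif1a overlap those of the antisense gene Gm15283, at a mean of 72.0 normalised counts against 4158. They also overlap exons of the protein-coding gene Gm49321 on the same strand, which had no values. Epas1, which encodes the HIF-2 alpha subunit, had 1039.8, 1867 and 1638 in controls and 1243, 1590.0 and 2454 in knockdowns, and its sign differed between pairs (change 0.20, SE 0.33). Vhl had 919, 772 and 953 in controls and 1145, 1218 and 928 in knockdowns, a change of 0.31 (SE 0.19) that did not pass.

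Set against each other, enzymes and HIF targets outside glycolysis had near-equal medians and unequal spreads. The difference of the medians, enzymes minus targets, was 0.05, with 0.14, -0.14 and 0.03 in pairs 1, 2 and 3. Its sign thus changed between pairs. The enzymes' changes ran from -0.04 to 0.70 and those of the targets from -0.35 to 3.43. With transporters and regulators counted among the enzymes, the difference was 0.11. As higher, 8 of 13 enzymes and 7 of 16 targets passed, against 4.54% of all genes. On replicates 1 and 3 only, 0 enzymes and 3 targets were called higher in that fit, against 0.464% of all genes. On 1 and 2 only, 0 and 6 were, against 0.636%. On 2 and 3 only, 7 and 7 were, against 9.24%. The lists also differed by replicate: relative to each gene's own mean over the 6 libraries, the median target stood at -0.93 in control 1 and -0.68 in knockdown 1 on the log2 scale, and at 0.24, -0.25, 0.95 and 0.26 in control 2, control 3, knockdown 2 and knockdown 3. For enzymes the same values were -0.39 and 0.00 in control 1 and knockdown 1, then -0.05, -0.29, 0.72 and 0.06. In targets, both replicate 1 libraries were thus below all others, and in enzymes only control 1 was. No test was made of these lists, since the genes were chosen with results of these data known.

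**Figure D4:**
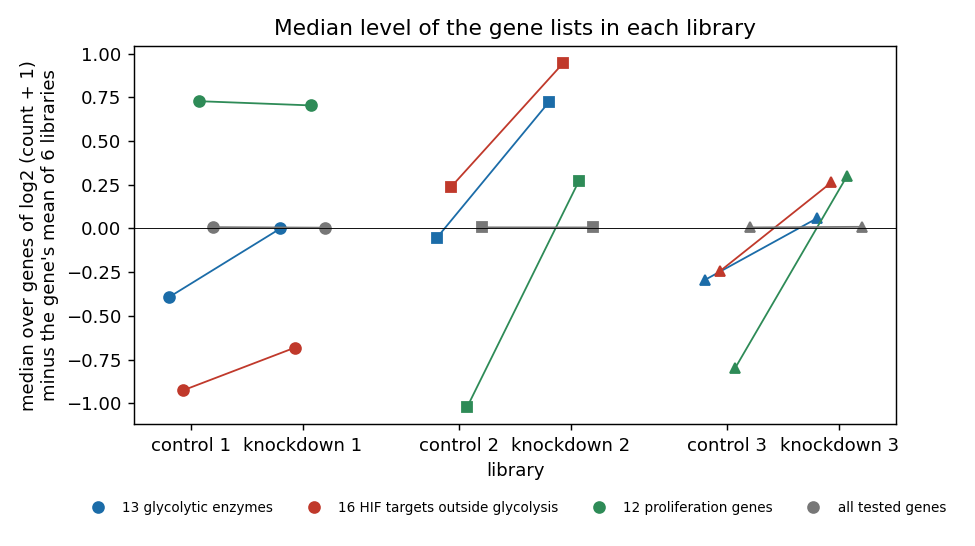
Median over the genes of a list of log2 (count + 1), each gene first set to its own mean over 6 libraries (vertical axis), in each library, with lines joining control and knockdown of 1 replicate number. Every line for enzymes and HIF targets goes up, HIF targets start low in replicate 1 (-0.93), and the proliferation list goes up in replicates 2 and 3 and is flat in replicate 1.

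Other genes of these pathways were counted the same way. The 25 further tested glycolysis genes had a median log2 change of 0.37, beside 0.00 over all genes tested. Of these genes, 3 passed as higher and 0 as lower, against 4.54% and 2.60% of all genes. They were the aldolase Aldoc (391, 1347 and 980.4 in controls, 1035, 4247 and 1860 in knockdowns, change 1.33, adjusted p = 5.96e-07 in blocked DESeq2), the liver-type pyruvate kinase Pklr (1.11, adjusted p = 0.0037) and the phosphatase Pgp (0.94, adjusted p = 0.0050). Of 34 further hypoxia-induced genes, 9 passed as higher and 1 as lower, against those same shares, with a median of 0.36. The growth factor Pgf was at 2.94 and Selenbp1 at 1.79, both passing in blocked DESeq2. The 1 gene that passed as lower, named here after its values were seen, was Stc1, which encodes stanniocalcin, at -0.87 (adjusted p = 0.0101 in blocked DESeq2), with 1103, 1492 and 932 in controls and 847, 764 and 389.7 in knockdowns.

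Of 16 further regulators of HIF, 1 passed as higher and 0 as lower, against 4.54% and 2.60% of all genes tested. The same shares apply to the lists that follow, and these counts of few genes lie near them. Hif3a, an alpha subunit that can act against the others, had 7.46, 23.0 and 12.5 in controls and 35.1, 364 and 90.2 in knockdowns, with no overlap and a change of 2.93 (adjusted p = 1.24e-06 in blocked DESeq2). Counts this low make the size of the change uncertain. In the pentose phosphate pathway, which branches from glycolysis, 1 of 8 genes passed, Taldo1 (0.65, adjusted p = 0.0328 in blocked DESeq2), and the median was 0.13. Gluconeogenesis had 0 of 5 passing (median 0.10), with the 2 genes of highest mean, Pck2 and Pcx, at -0.18 and 0.23. The list of pyruvate dehydrogenase and the citric acid cycle, through which mitochondria burn pyruvate, had 0 of 24 passing and a median of 0.12. Mdh2, a malate dehydrogenase in this list, was at 0.30. A count of 0 of 24 is near the shares of all genes called, 4.54% as higher and 2.60% as lower. In all 3 pairs 12 of the 24 were higher and 3 lower, against 22.3% and 19.7% of all genes. The groups did not overlap in 3 genes as higher and 1 as lower, against 6.29% and 5.44%. The share of mitochondrial reads was 0.595%, 1.55% and 2.03% in controls and 0.555%, 1.02% and 1.20% in knockdowns 1, 2 and 3.

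**Figure D5:**
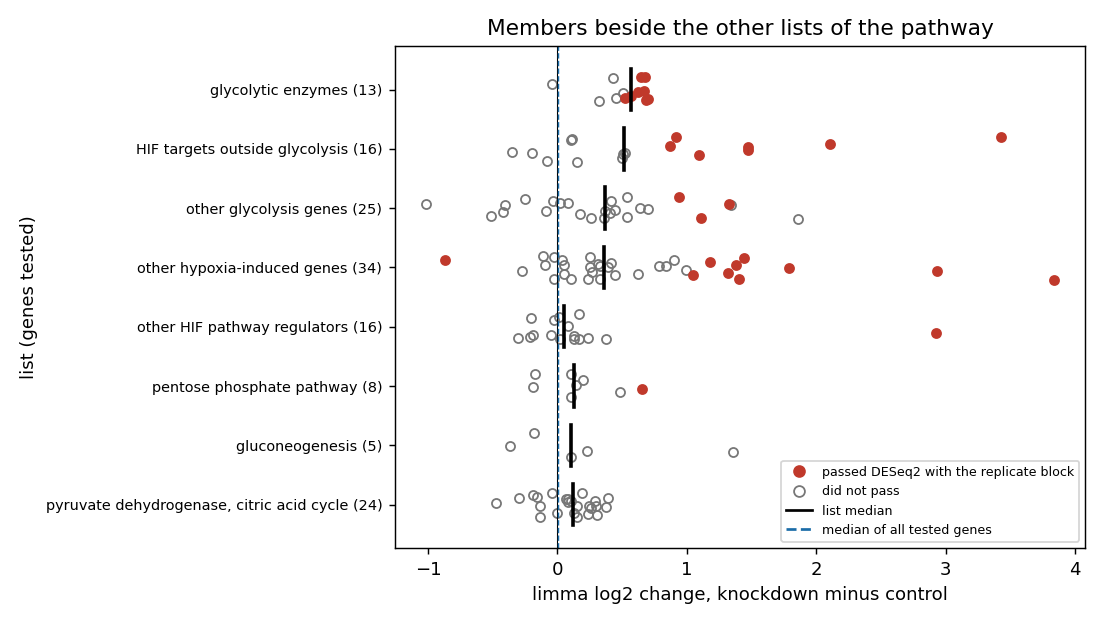
Limma log2 change, knockdown minus control, of each tested gene in 8 lists (rows, number of genes in brackets); filled points passed DESeq2 with the replicate term and black bars are list medians. Enzymes and HIF targets have medians of 0.57 and 0.51. The citric acid cycle list has a median of 0.12, a range from -0.48 to 0.39 and no filled point. Of all genes tested, 4.54% passed as higher and 2.60% as lower.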

How the data were processed

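RNA of 6 organoid samples was measured by sequencing of TruSeq libraries, per the labels' protocols. The submitters' processing notes list STAR 2.5.2b, DESeq2 1.32.0 and GRCm38, and the counting tool is not given in the sources used here. The deposited values are a signal: the authors divided read counts by 1 factor per library, and whole reads were recovered for 100% of values, within 0.001 of a read. All 6 deposited tables were identical and 1 was used. Spike-ins (48) entered no test of genes.

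Groups came from titles. Members, lists and tests were chosen with earlier results of these data known. The main test was limma 3.58.1 (trend) on log2 of the normalised count plus 1, for 13997 genes with at least 10 in 3 samples, with Benjamini-Hochberg adjustment. EdgeR 4.0.16 and DESeq2 1.42.0 were run on the recovered reads, each with and without the replicate number as a block, and tested on simulated data. Named genes were those called in any of these fits, the 2 of highest count per role, and up to 3 called genes (or, with none called, 2) of each other list, of which 2 genes are not reported here. Positions are those of GENCODE M21 (GRCm38). Deviations from the group means correlated at r = 0.68, 0.57 and 0.44 for replicate numbers 1, 2 and 3, each above 0.1, so the numbers were treated as pairs. The labels do not say what they stand for, and controls 3 and 2 with knockdowns 2 and 3 also correlated, at r = 0.38 and r = 0.37. Replicate 1 stood apart in both groups, so this check cannot tell pairs 2 and 3 from their swap. No fit with those pairs swapped was run.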

Additional observations from a re-analysis of the deposited data

How the results depend on the processing

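Without the replicate block, limma called 0 of the 36 genes and 0 of the other pathway genes. Limma and edgeR with the replicate block called 0 of the 36 and 1 of the other genes, where each called 0.0143% of all genes as higher. DESeq2 called 1 and 3 without the block and 19 and 15 with it, where Jag1 also passed (-1.02). Of all genes, it called 0.722% as higher and 0.522% as lower without the block, and 4.54% and 2.60% with it. DESeq2 with the block was also run on 2 replicate numbers at a time, chosen after seeing the data. It called 18 and 25 on replicates 2 and 3 only (Jag1 -1.10, passing), against 9.24% of all genes as higher and 6.32% as lower. On 1 and 3 it called 4 and 5, against 0.464% and 0.250%. On 1 and 2 it called 7 and 6, against 0.636% and 0.279%. The rise from 15 to 25 other genes thus came with a rise in the share of all genes. Limma called 3 and 12 on replicates 2 and 3 only, where it called 6.04% of all genes as higher and 3.57% as lower, and 1 and 2 with spike-in scaling (0.550% and 0.279%). That scaling moved the median of all genes to -0.18 and put Bnip3l, P4ha1 and Kdm3a at -0.074, -0.070 and -0.029. The cause of these changes was not tested, other than that fewer libraries enter a subset.

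Leaving out 1 library at a time, the median of the enzymes ran from 0.35 to 0.70, that of the HIF targets from 0.23 to 0.72, and their difference from -0.10 to 0.12. The changes of some genes that did not pass crossed 0. Hk2 ran from -0.16 to 0.072, Bnip3l from -0.28 to 0.44, P4ha1 from -0.37 to 0.49 and Kdm3a from -0.17 to 0.59. Epas1 ran from -0.065 to 0.43, Mxi1 from -0.64 to 0.42 and Plod2 from -0.68 to 0.15. Slc16a3, which passed, ran from -0.11 to 2.44. On replicates 2 and 3 only Hk2 was 0.16 in limma and in blocked DESeq2, and on 1 and 2 only Mxi1 was 0.027 in both. These medians, under another pseudocount, filter, TMM scaling or tool, moved by less than the spread between pairs.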
